A study of Rattus norvegicus with 6 samples.

Results

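Collagen chains and ADAMTS matrix proteases were followed across cell classes of the rat nucleus accumbens, a region of the ventral striatum, by single-nucleus RNA sequencing. The genes were all those whose symbol is Col, a number, a and a number, or starts with Adamts. They came to 68 of the 25629 genes in the files, of which 44 were collagen chains, 19 were ADAMTS proteases and 5 were ADAMTS-like genes (Adamtsl), relatives that lack the protease domain. The tissue came from Sprague-Dawley rats of 90 to 120 days, all of which had self-administered heroin. Self-administration ran on a fixed ratio schedule, 7 days with 1 response earning an infusion and then 4 days with 3. A progressive ratio test, in which each infusion costs more responses than the one before, followed on day 12, and the ratio of 3 came back on days 13 and 14. Saline or naloxone, which blocks opioid receptors, was then given, and tissue was taken 1 h afterwards. Punches from 12 rats, 6 male and 6 female, were pooled into 6 libraries with both sexes in each: saline replicates 1, 2 and 3 and naloxone replicates 4, 5 and 6. Rats without heroin were not analysed here, so every value below, in both groups, is from heroin-experienced animals. The labels do not say which rats went into which library, and p-values measure the spread between these pools.

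Collagens are secreted proteins whose chains wind into trimers of like or unlike chains. Fibrillar chains (such as types I, II, III, V and XI) build fibrils, type IV builds the sheets of basement membranes around vessels, FACIT collagens (types IX, XII, XIV, XIX, XX and XXII among them) decorate fibrils, and types XIII, XVII, XXIII and XXV sit in the cell membrane. ADAMTS proteases are secreted metalloproteases: some cleave the proteoglycans of the brain's matrix (ADAMTS1, 4, 5 and 9, among others), some trim procollagens (ADAMTS2, 3 and 14), and others act on fibrillins or von Willebrand factor. In brain, collagen IV is best known from the walls of vessels, and Adamts4 from myelinating cells.

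The 6 libraries held between 55739350 and 76272798 unique molecular identifiers (UMIs, one per captured RNA molecule) in 8094 to 15020 barcodes each, and 19 to 45 barcodes were shared between any pair of libraries. Naloxone replicate 5 had the highest median mitochondrial share, 0.551%, against 0.151% to 0.338% in the other 5 libraries. Of 61609 nuclei kept, 32715 (53.1%) were placed in 1 of 18 classes by marker genes that include no collagen and no Adamts gene. Another 17191 were neurons that passed no subtype gate, and 7941 (12.9%) were set aside as mixed. Mixed nuclei met several broad gates with none at least 2 times as strong as the next, or were neurons with many glial or vessel markers. Where the strongest gate was at least 2 times the next, the nucleus went to that class. Committed precursors could also meet the oligodendrocyte and oligodendrocyte precursor gates. Oligodendrocyte markers had a median of 127 UMIs per 10000 in their nuclei, against 159 in oligodendrocytes. Oligodendrocyte precursor markers had a median of 3.05 there, against 36.1 in oligodendrocyte precursors. Their own markers had a median of 98.2, against 22.9 in oligodendrocytes and 24.1 in oligodendrocyte precursors. Of 361 committed precursors, 200 had only the minimum number of markers. Each class is named after its gate: spiny projection neurons with Drd1 (the D1 dopamine receptor), Drd2, Chst9 or Casz1, an island-like class with Drd3, Bnc2, cholinergic, somatostatin and Pthlh-Pvalb interneurons, glia and their precursors, endothelial and mural cells of the vessel wall, fibroblasts, and ependymal cells of the ventricle lining. In the Drd1 gate a UMI of Pdyn could stand in for Drd1, and in the Casz1 gate a UMI of Mdfic for Casz1. The Chst9 gate, unlike those of the Drd1, Drd2 and Casz1 classes, asked for no spiny neuron markers. Spiny neuron markers had a median of 11.5 UMIs per 10000 in Chst9 nuclei. The median was 57.8 in Drd1, 60.3 in Drd2 and 48.7 in Casz1 nuclei. It was 40.5 in island-like and 29.1 in somatostatin nuclei, and 12.6, 4.98 and 3.58 in Pthlh-Pvalb, Bnc2 and cholinergic nuclei. The vessel classes were small, with 303 endothelial, 143 mural and 20 fibroblast nuclei, against 11616 oligodendrocyte nuclei. Levels are CPM: the UMIs of a gene for every 1000000 UMIs of a class within a library.

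Over all nuclei, mean levels ran from 0.081 CPM (Col8a2) to 232 CPM (Col25a1), and 4 genes (Col25a1, Col11a1, Adamts3 and Adamts6) were above 100 CPM while 15 were under 1 CPM (counts of transcript ends, not scaled for gene length). Enough counts for a test between classes were found for 48 of the 68 genes, and the other 20 stayed at or under 3.01 CPM over all nuclei. A gene was said to mark a class when it was higher there than in each of the other 15 classes tested, by at least 1 on the log2 scale against the nearest of them, with an adjusted p under 0.05 (edgeR quasi-likelihood test on summed counts with library as a block, the largest p over the classes, Benjamini-Hochberg over all genes). By this rule 18 genes marked 1 of 9 classes: 14 collagens and 4 of the Adamts and Adamtsl genes. The count filter can be passed through the class where a gene is high, so this count is a description. It comes to 37.5% of the 48 tested, against 18.2% of all 12762 genes tested. The marked classes took in neurons, precursors, glia and vessel cells, as the map of mean levels by class shows.

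**Figure D1:**
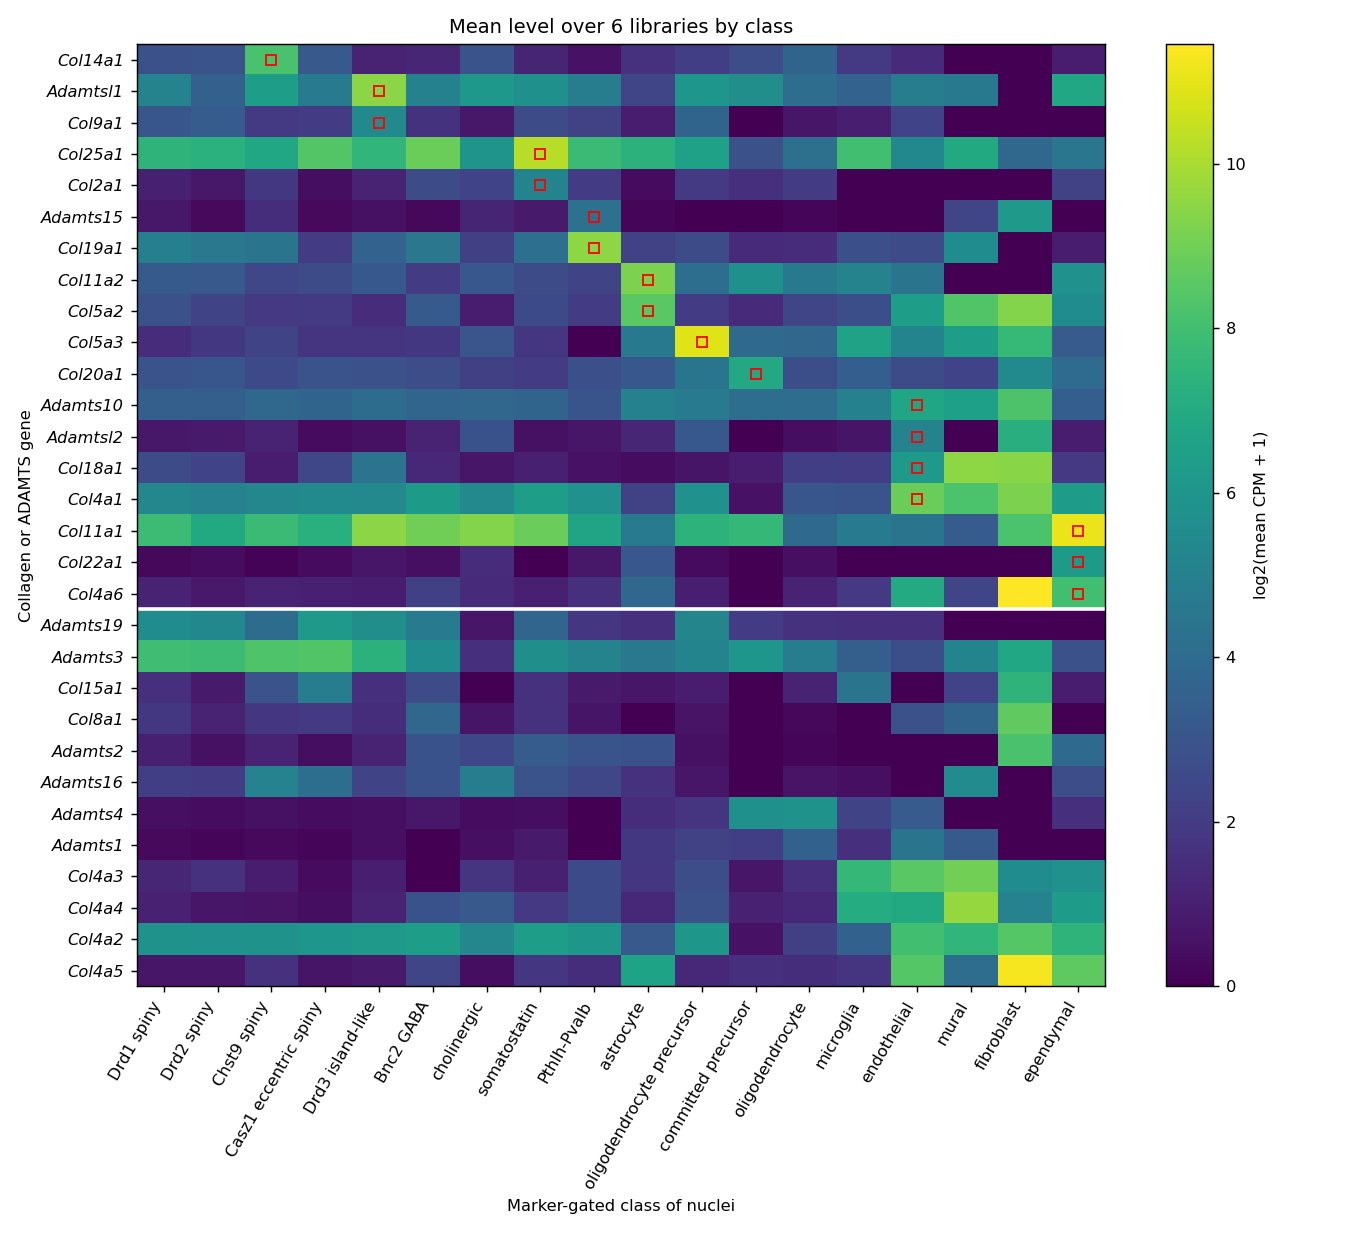
Mean level over 6 libraries, as log2(mean CPM + 1), of 30 collagen and ADAMTS genes (rows) in 18 marker-gated classes of nuclei (columns). Red squares show the class that a gene marks (18 genes above the white line), and the 12 genes under it are the leading genes of classes with no marking gene and the remaining collagen IV chains. Mural and fibroblast columns rest on 143 and 20 nuclei and were not in the main test.

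Col14a1, a FACIT collagen that coats fibrils, stood out in the Chst9 class. It ranged from 272 to 300.3 CPM (median 296) over the 6 libraries there, and from 7.35 to 18.1 CPM (median 11.1) in oligodendrocytes, the nearest class in the fit. The libraries of the Chst9 class all lay above every library of the other class, with a log2 difference of 4.70 (edgeR adjusted p = 1.98e-18), and 1 of the 48 tested genes, Col14a1, marked that class (0.0392% of all genes did). Col14a1 had a UMI in 63.8% of Chst9 nuclei (median depth 5541 UMIs) and in 3.47% of Drd2 spiny nuclei (median 8937 UMIs). With nuclei thinned to 1000 UMIs these shares were 24.2% and 0.755%. Here and below, thinned shares leave out nuclei with fewer than 1000 UMIs. Except for Col19a1, the class set beside a share of nuclei was not the nearest class of the fit. Col5a1, a fibrillar chain, was also highest in this class, at 29.0 ± 4.94 CPM (SD, n = 6), but did not pass the rule (edgeR adjusted p = 0.112). It passed where the gates asked for 1 more marker, with a log2 difference of 1.77 to somatostatin interneurons (edgeR adjusted p = 0.00415).

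The Drd3 island-like class was marked by Adamtsl1 and Col9a1, 2 of the 48 genes, against 0.133% of all genes. Adamtsl1, an ADAMTS-like glycoprotein of the matrix, ranged from 363 to 932 CPM (median 772) there and from 44.6 to 133 CPM (median 79.2) in the Chst9 class, the nearest class in the fit. The second highest mean was 112 ± 75.8 CPM in ependymal nuclei. All 6 libraries of the island-like class were higher, by a log2 difference of 3.04 (edgeR adjusted p = 3.51e-13), although saline replicates 1 and 2 lay well under the other 4 libraries. A UMI of Adamtsl1 was seen in 60.2% of island-like nuclei (median depth 4390.0 UMIs) and in 2.23% of oligodendrocyte nuclei (median 1624 UMIs), or 42.6% and 1.27% at 1000 UMIs. Col9a1, a FACIT chain of cartilage, was low in absolute terms: it ranged from 25.4 to 61.5 CPM (median 37.5) in this class and from 6.37 to 15.9 CPM (median 12.2) in oligodendrocyte precursors. The libraries did not overlap, and the log2 difference was 1.84 (edgeR adjusted p = 1.47e-05). The other chains of the type IX trimer were not high in the same class: Col9a2 was at 0.557 ± 0.627 CPM and Col9a3 at 3.38 ± 1.21 CPM there, while Col9a3 was at 92.7 ± 23.4 CPM in committed precursors and 75.8 ± 11.4 CPM in oligodendrocytes (SD, n = 6).

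Somatostatin and Pthlh-Pvalb interneurons had 2 marking genes each. Somatostatin interneurons (0.157% of all genes marked them) were marked by Col25a1, a transmembrane collagen also found in amyloid plaques, and Col2a1, the fibrillar chain of cartilage. Col25a1 ranged from 1065 to 1398 CPM (median 1209) in the somatostatin class and from 368 to 626 CPM (median 417) in the Bnc2 class. It was detected in every class, with 335 ± 47.3 CPM in Casz1 spiny neurons and 255 ± 36.2 CPM in microglia, and the log2 difference to the Bnc2 class was 1.34 (edgeR adjusted p = 9.05e-14). Col2a1 ranged from 17.0 to 58.1 CPM (median 33.8), against at most 10.1 CPM in the Bnc2 class, whose saline replicate 1 had 0 UMIs (which allows up to 11.1 CPM). Its log2 difference was 2.31 (edgeR adjusted p = 0.00535). Of the 362 somatostatin nuclei, 209 had only the minimum number of markers for the gate, and spiny neuron markers were also present in this class, as given above. With 1 more marker needed, Col25a1 and Col2a1 kept their mark, by 2.00 over Casz1 and 3.58 over cholinergic neurons on the log2 scale. In the Pthlh-Pvalb class (0.196% of all genes marked it) the FACIT collagen Col19a1 ranged from 493 to 1096 CPM (median 664) and was at most 35.2 CPM in any library of Drd1 spiny neurons, the next class. The log2 difference of Col19a1 was 4.32 (edgeR adjusted p = 1.42e-26). Col19a1 had a UMI in 62.3% of Pthlh-Pvalb nuclei (median depth 9242 UMIs) and 17.5% of Drd1 nuclei (median 10736 UMIs), or 36.1% and 2.02% at 1000 UMIs. Adamts15, a protease that cleaves aggrecan and versican, marked the same class from 34 UMIs in all, with 4.29 to 27.3 CPM (median 19.9) (log2 difference 3.14, edgeR adjusted p = 0.0163). It fell under the count filter, and so had no test, when any of 5 libraries was left out. Of the 183 nuclei of this class, 175 had only the minimum number of markers for the gate. With 1 more marker needed, neither Col19a1 nor Adamts15 could be tested there.

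**Figure D2:**
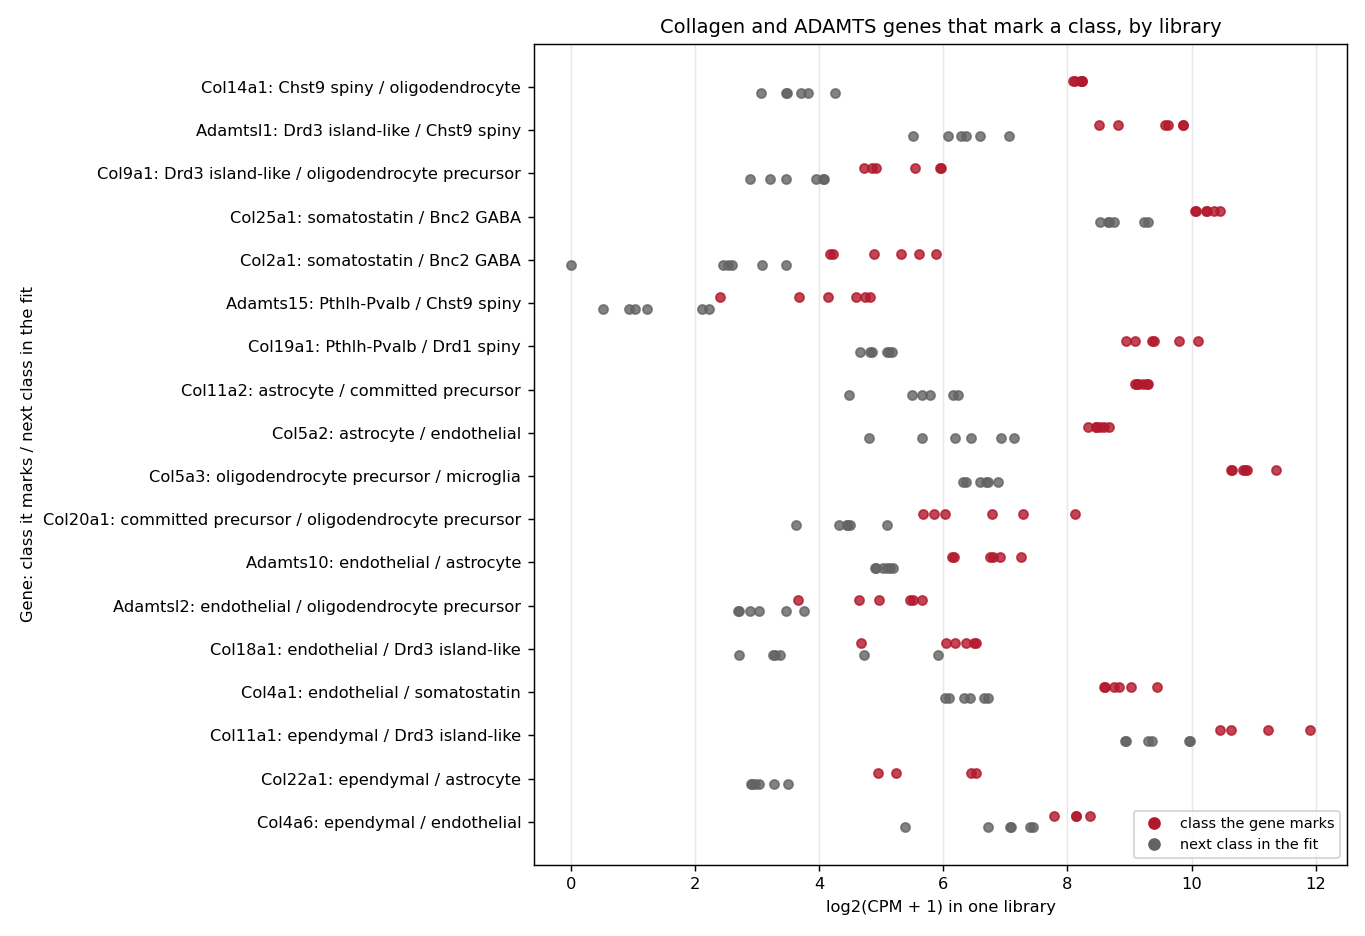
Level in each library, as log2(CPM + 1), of the 18 collagen and ADAMTS genes that mark a class, in that class (red) and in the next class of the fit (grey), for libraries with at least 20 nuclei of the class. For Col14a1, Col5a3, Col19a1 and Col11a2 the red and grey points are far apart, while for Adamtsl2 and Col18a1 they overlap.

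No gene of the set marked the Drd1, Drd2, Casz1, Bnc2 or cholinergic classes (0%, 0.0392%, 0.0392%, 0.0313% and 0.58% of all genes did). In Drd1 and Drd2 spiny neurons the genes farthest above the mean of the other classes were Adamts19 and Adamts3, a protease that processes procollagen and activates the growth factor VEGFC. Adamts3 was shared by the Drd1, Drd2, Chst9 and Casz1 classes. It was at 247 ± 74.0 CPM in Drd1, 231 ± 48.7 CPM in Drd2, 318 ± 46.7 CPM in Chst9 and 328 ± 76.0 CPM in Casz1 neurons (SD, n = 6). Somatostatin interneurons had it at 51.9 ± 28.0 CPM and cholinergic interneurons at 1.90 ± 2.34 CPM. Adamts19 was at 71.5 ± 15.1 CPM in Casz1, 50.0 ± 16.4 CPM in island-like, 46.2 ± 11.6 CPM in Drd1 and 39.7 ± 11.9 CPM in Drd2 neurons, and it was 0.57 higher on the log2 scale in Casz1 than in Drd1 neurons (edgeR adjusted p = 0.00837), short of the difference of 1 that the rule asks for. Adamts6 was highest in Drd2 neurons, from 226 to 266 CPM (median 238), and ranged from 147 to 198 CPM (median 174) in Drd1 neurons. Its 6 libraries did not overlap between these classes, and the log2 difference was 0.54 (edgeR adjusted p = 2.21e-06), also under 1. The leading genes were Col15a1 in the Casz1 class (27.0 ± 6.46 CPM), Col8a1 and Adamts2 in the Bnc2 class (12.6 ± 4.46 CPM and 6.45 ± 8.46 CPM), and Adamts16 and Adamtsl2 in cholinergic neurons (27.5 ± 8.12 CPM and 6.34 ± 4.32 CPM). None of these 5 values passed the test against the nearest class (edgeR adjusted p = 0.383 for Col15a1 and 1 for the others), and Adamts16 was about as high in the Chst9 class, at 32.5 ± 8.46 CPM.

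Oligodendrocyte precursors, the dividing cells that give rise to myelinating oligodendrocytes, were marked by Col5a3, a chain of the fibrillar collagen V. It was read at 1609, 1579 and 1819.7 CPM in saline replicates 1 to 3 and 1897, 2622 and 1862 CPM in naloxone replicates 4 to 6, and at no more than 116 CPM in any library of microglia, the next class. The log2 difference was 4.71 (edgeR adjusted p = 2.57e-38), and 0.713% of all genes marked this class. A Col5a3 UMI was present in 93.0% of precursor nuclei (median depth 3158 UMIs) and in 2.08% of oligodendrocytes (median 1624 UMIs), or 78.4% and 1.34% at 1000 UMIs. Adamts18, another protease, was at 55.6 ± 35.7 CPM in these precursors and 89.6 ± 78.3 CPM in ependymal nuclei (SD, n = 6) and did not mark either class (edgeR adjusted p = 1.00). It marked the precursors in 6 alternative fits (log2 difference 2.20 to 2.83, edgeR adjusted p of 7.79e-09 to 0.0015). In 5 of these fits ependymal nuclei were too few for a test. Along the lineage the mean level of Col5a3 was 1898 CPM in precursors, 14.2 CPM in committed precursors and 12.6 CPM in oligodendrocytes. The chains that pair with it, Col5a1 and Col5a2, were at 7.05 ± 2.14 CPM and 2.96 ± 1.52 CPM in the same precursors (SD, n = 6). Across the 16 classes the levels of Col5a3 and Col5a1 had a Pearson r of -0.058 and those of Col5a3 and Col5a2 an r of 0.176 (log2(CPM + 1); the classes share libraries). The 250 bases before the start of Col5a3 are printed because this gene had the largest log2 difference to the next class among the 18, taken from RefSeq on build GRCr8, minus strand, chr8:27625949-27626198, with capitals for the CCAAT box (CCAAT, bound by NF-Y) and the GC box (GGGCGG, bound by Sp1), searched on both strands.
Col5a3: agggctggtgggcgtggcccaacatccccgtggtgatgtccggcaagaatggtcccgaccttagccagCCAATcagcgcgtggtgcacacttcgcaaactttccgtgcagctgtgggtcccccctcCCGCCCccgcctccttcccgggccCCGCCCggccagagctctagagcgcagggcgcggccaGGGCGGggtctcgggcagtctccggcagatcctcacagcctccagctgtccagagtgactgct
This stretch held 1 CCAAT and 3 GC boxes that did not overlap, and TATAAA was not among its letters. In all, 34.3% held a CCAAT and 32.4% a GC box of the 27457 promoters of the same length.

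Committed precursors, the short-lived stage between precursor and oligodendrocyte, were marked by Col20a1, a FACIT collagen (0.917% of all genes marked this class). It was read at 109, 50.1 and 56.4 CPM in saline replicates 1 to 3 and 155, 278 and 64.1 CPM in naloxone replicates 4 to 6, a wide spread from 150 UMIs in 361 nuclei, and at 21.1 ± 6.95 CPM in oligodendrocyte precursors (SD, n = 6). The libraries of these classes did not overlap, with a log2 difference of 2.26 (edgeR adjusted p = 4.64e-07). In oligodendrocytes the leading genes were Adamts4, an aggrecanase, and Adamts1, a related protease, and neither marked the class (1.27% of all genes did). Adamts4 was at 56.6 ± 8.47 CPM in oligodendrocytes and 53.7 ± 17.9 CPM in committed precursors, where the log2 difference was 0.06, and at 2.37 ± 0.881 CPM in oligodendrocyte precursors. Adamts1 was at 10.9 ± 4.13 CPM in oligodendrocytes and 20.3 ± 11.5 CPM in endothelial nuclei. Adamts20, another protease of this family, was spread over glia, with 281 ± 38.6 CPM in oligodendrocyte precursors, 244 ± 43.5 CPM in astrocytes and 174 ± 14.9 CPM in oligodendrocytes, and was at most 22.0 CPM in any library of the Drd1, Drd2, Chst9 and Casz1 spiny neurons.

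Astrocytes were marked by the fibrillar chains Col11a2 and Col5a2 (2.34% of all genes marked them). Col11a2 ranged from 545 to 631 CPM (median 580.4) in astrocytes and from 21.4 to 74.2 CPM (median 51.7) in committed precursors, a log2 difference of 3.38 (edgeR adjusted p = 1.22e-26). Col5a2 ranged from 322 to 407 CPM (median 359.6) in astrocytes and from 26.8 to 139 CPM (median 79.3) in endothelial nuclei, a log2 difference of 2.65 (edgeR adjusted p = 9.63e-14), and no library overlapped for either gene. In mural nuclei, which were too few for the main test, Col5a2 was at 326 ± 186 CPM (SD, n = 6). Col11a1, the partner of Col11a2 in collagen XI, was at 24.4 ± 7.89 CPM in astrocytes and was high elsewhere: it ranged from 1401 to 3857 CPM (median 1994) in ependymal nuclei and was at 708 ± 233 CPM in island-like, 647 ± 203 CPM in cholinergic and 509 ± 73.0 CPM in Bnc2 neurons. Adamts12 and Col27a1 led in astrocytes without marking them. Adamts12 was about as high in ependymal nuclei (154 ± 11.3 CPM and 152 ± 32.8 CPM) and marked astrocytes in the 5 fits without that class (log2 difference 1.13 to 1.24), and Col27a1 was at 326 ± 38.1 CPM in astrocytes and 194 ± 24.0 CPM in oligodendrocyte precursors.

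Endothelial nuclei were marked by 4 genes (2.51% of all genes): Col4a1 of the basement membrane, Col18a1, the source of endostatin, the ADAMTS-like gene Adamtsl2 and the protease Adamts10, which acts on fibrillin. Col4a1 ranged from 382 to 696 CPM (median 442) there and from 64.4 to 104 CPM (median 82.4) in somatostatin interneurons, the next class, and the log2 difference was 1.98 (edgeR adjusted p = 3.99e-13). Adamts10 was at 105 ± 31.1 CPM against 32.1 ± 2.80 CPM in astrocytes, with no overlap (log2 difference 1.12, edgeR adjusted p = 1.68e-04). The other 2 rest on few molecules: Adamtsl2 on 16 and Col18a1 on 34 UMIs, their libraries overlapped with the next class, and the adjusted p was 0.0265 and 0.0428. With any 1 of saline replicates 2 and 3 and naloxone replicate 6 left out, neither of these 2 passed (adjusted p of 0.0744 to 0.527 for Col18a1 and 0.0921 to 0.332 for Adamtsl2), and Col18a1 also failed without saline replicate 1 (0.168) or naloxone replicate 5 (0.0597). Fibroblast nuclei, 20 in all, were not in this test. Pooled, they held Col4a1, Col18a1, Adamtsl2 and Adamts10 at 587, 866, 196 and 279.5 CPM, from 21, 31, 7 and 10 UMIs. In pooled endothelial nuclei these genes were at 464, 73.0, 34.3 and 98.7 CPM, in that order.

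Mural nuclei, the pericytes and smooth muscle of the vessel wall, entered only a second fit that took sums of at least 10 nuclei, chosen after seeing the data. There Col18a1 was higher in mural than in endothelial nuclei by 2.95 on the log2 scale, and so no longer marked endothelial nuclei, and Adamts10 lost its mark too (log2 difference 0.75 to the mural class). Of the genes that kept their mark, Col4a1 was 1.07 higher in endothelial than in mural nuclei (edgeR adjusted p = 0.00133) and Col5a2 1.02 higher in astrocytes than in mural nuclei (0.00531). Both differences are close to the difference of 1 that the rule asks for. Col4a1 was at 297 ± 199.7 CPM in mural nuclei (SD, n = 6) from 49 UMIs. Col18a1 was read at 539.5, 857 and 778 CPM in saline replicates 1 to 3 and 648, 794 and 701 CPM in naloxone replicates 4 to 6 in mural nuclei, and at 72.0, 91.1 and 89.3 CPM in saline replicates 1 to 3 and 81.2, 64.9 and 24.6 CPM in naloxone replicates 4 to 6 in endothelial nuclei. In this second fit Col18a1, Col7a1, Col4a4, Col6a1 and Col6a2 marked mural nuclei (edgeR adjusted p = 9.51e-11, 1.22e-10, 4.37e-10, 0.000502 and 0.0340), against 0.751% of all 12118 genes tested there. Col7a1, best known from the anchoring fibrils of skin, was at 247 ± 92.6 CPM (SD, n = 6) from 38 UMIs, and could pass the count filter only through this class, against 3.42 ± 5.37 CPM in endothelial nuclei. The collagen VI chains Col6a1 and Col6a2 were at 244 ± 158 CPM and 148 ± 58.4 CPM. Col6a3, the third chain of that trimer, had 0 UMIs in mural nuclei, which allows up to 17.4 CPM over the pooled class. Fibroblast nuclei, 20 in all, entered neither fit, so these marks are against the tested classes only. Pooled fibroblast nuclei held Col18a1 at 866, Col7a1 at 224, Col6a1 at 140, Col6a2 at 307, Col6a3 at 447 and Col4a4 at 27.95 CPM. In pooled mural nuclei the same genes were at 731, 220.5, 220.5, 139, 0 and 778 CPM, in that order. Mural and endothelial RNA were not fully apart in the gates: the 8 mural markers summed to 614 CPM in endothelial and 6859 CPM in mural nuclei, and the 10 endothelial markers to 103 CPM in mural and 16020.0 CPM in endothelial nuclei, with 4 of the 10 at 0 in mural nuclei.

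The 6 chains of collagen IV split into the pairs in which their genes lie, head to head on opposite strands. In the RefSeq promoter table (build GRCr8) the starts of Col4a1 and Col4a2 on chromosome 16 are separated by 76 bases, those of Col4a3 and Col4a4 on chromosome 9 by 412 bases, and those of Col4a5 and Col4a6 on the X chromosome by 1414 bases. The stretches below are shown because the levels of the genes on either side of each went together across classes (Pearson r of 0.957 and 0.920). They are all the bases between the starts of Col4a2 and Col4a1 (plus strand, chr16:84885521-84885596) and the 250 bases before the starts of Col4a3 (plus strand, chr9:91323740-91323989) and Col4a4 (minus strand, chr9:91323578-91323827), with GC boxes in capitals.
Col4a2-Col4a1: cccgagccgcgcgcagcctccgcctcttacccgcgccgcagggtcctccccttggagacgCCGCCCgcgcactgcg
Col4a3: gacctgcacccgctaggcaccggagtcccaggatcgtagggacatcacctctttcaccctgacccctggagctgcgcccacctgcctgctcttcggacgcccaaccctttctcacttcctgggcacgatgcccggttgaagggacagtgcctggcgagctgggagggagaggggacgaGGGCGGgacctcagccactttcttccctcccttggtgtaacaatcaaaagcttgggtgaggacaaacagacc
Col4a4: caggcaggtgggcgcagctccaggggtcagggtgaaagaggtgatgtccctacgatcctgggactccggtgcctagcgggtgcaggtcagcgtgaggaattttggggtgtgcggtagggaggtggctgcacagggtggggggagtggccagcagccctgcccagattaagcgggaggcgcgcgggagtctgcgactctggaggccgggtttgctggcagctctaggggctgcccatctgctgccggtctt
The shared stretch of Col4a2 and Col4a1 was 78.9% G and C and held 1 GC box, the stretch of Col4a3 held 1, that of Col4a4 held 0, and none of them held CCAAT or TATAAA. The 250 bases before the starts of Col4a5 and Col4a6, a pair with r of 0.951, held 1 GC box each and are not printed. Of the 68 genes, 54 had an entry in the promoter table, and 55.6% of those held a GC box.

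Col4a1 and Col4a2 were present in every neuron class, at 33.3 ± 6.37 CPM and 54.3 ± 3.15 CPM in Drd2 spiny neurons (SD, n = 6), and were highest in endothelial nuclei among the 16 tested classes. Col4a2 ranged from 108 to 348 CPM (median 264) in endothelial nuclei but did not pass the rule (log2 difference 0.40 to the next class). Both were low in astrocytes (3.82 ± 2.33 CPM and 8.19 ± 3.25 CPM) and oligodendrocytes (7.33 ± 2.42 CPM and 3.52 ± 1.33 CPM). Col4a3 and Col4a4, the chains of the mature kidney filter, followed another pattern, with vessel cells and microglia high. Col4a3 was at 368 ± 116 CPM in endothelial, 519 ± 99.8 CPM in mural and 195 ± 60.8 CPM in microglial nuclei, and Col4a4 at 125 ± 63.9 CPM, 801 ± 219 CPM and 134 ± 38.1 CPM. In oligodendrocytes they were at 1.97 ± 1.25 CPM and 1.51 ± 0.856 CPM. Microglia had no marking gene in the set (4.87% of all genes). Against endothelial nuclei, the nearest class, their log2 difference was -0.63 for Col4a3 and 0.46 for Col4a4 (edgeR adjusted p = 1.00 and 0.642). Both marked microglia with nuclei of at least 1000 genes, where endothelial nuclei were too few for a test. The transmembrane collagen Col23a1 was highest in microglia, at 69.9 ± 25.3 CPM, with 61.8 ± 22.4 CPM in ependymal nuclei (SD, n = 6; log2 difference 0.47, edgeR adjusted p = 1.00). In the 5 alternative fits without ependymal nuclei Col23a1 marked microglia, by 2.72 to 3.16 on the log2 scale (edgeR adjusted p of 2.09e-07 to 7.10e-05). In microglia a Col4a3 UMI was seen in 300 of 1485 nuclei and a Col4a4 UMI in 15.4% (median depth 1311 UMIs), against 0.341% and 0.236% of oligodendrocytes (median 1624 UMIs). At 1000 UMIs the shares were 14.9% and 10.6% in microglia. The 10 endothelial markers summed to 269 CPM in microglia, with 2 at 0, against 16020.0 CPM in endothelial nuclei, the 8 mural markers to 14.7 CPM, with 3 at 0, and the endothelial Col4a1 was at 6.91 ± 6.12 CPM in microglia.

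Col4a5 and Col4a6 formed the last pattern. Col4a6 marked ependymal nuclei together with Col11a1 and the FACIT collagen Col22a1 (4.4% of all genes marked them). In ependymal nuclei Col4a6 ranged from 121 to 329 CPM (median 280.2) and Col4a5 from 240.2 to 589 CPM (median 399), and in endothelial nuclei Col4a6 ranged from 40.5 to 173 CPM (median 135) and Col4a5 from 233 to 476 CPM (median 344). In the 4 ependymal libraries that could be tested, none of these 3 genes overlapped with the next class. The log2 difference to it was 1.39 for Col4a6, 1.16 for Col11a1 and 2.44 for Col22a1 (edgeR adjusted p = 2.69e-04, 1.37e-06 and 1.58e-05). This test used 4 libraries, since saline replicate 3 and naloxone replicate 5 had 16 and 19 ependymal nuclei, and without any of the 4 the class was not tested. In those 4 fits Col4a6 and Col4a5 marked endothelial nuclei instead, by 2.46 to 2.77 and 1.27 to 1.34 on the log2 scale over astrocytes. Both genes were near 0 in mural nuclei, at 16.2 ± 25.1 CPM and 4.20 ± 10.3 CPM, where Col4a3 and Col4a4 were highest. Astrocytes had Col4a5 at 100.5 ± 12.9 CPM and Col4a6 at 13.7 ± 4.28 CPM. Across the 16 tested classes the mean levels within a pair had a Pearson r of 0.957 (Col4a1 and Col4a2), 0.920 (Col4a3 and Col4a4) and 0.951 (Col4a5 and Col4a6), with Spearman's rho of 0.944, 0.676 and 0.626. Between pairs, r was 0.285 for Col4a1 and Col4a3, 0.268 for Col4a1 and Col4a5 and 0.625 for Col4a3 and Col4a5 (log2(CPM + 1); these are descriptions over classes that share libraries and differ in depth).

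**Figure D3:**
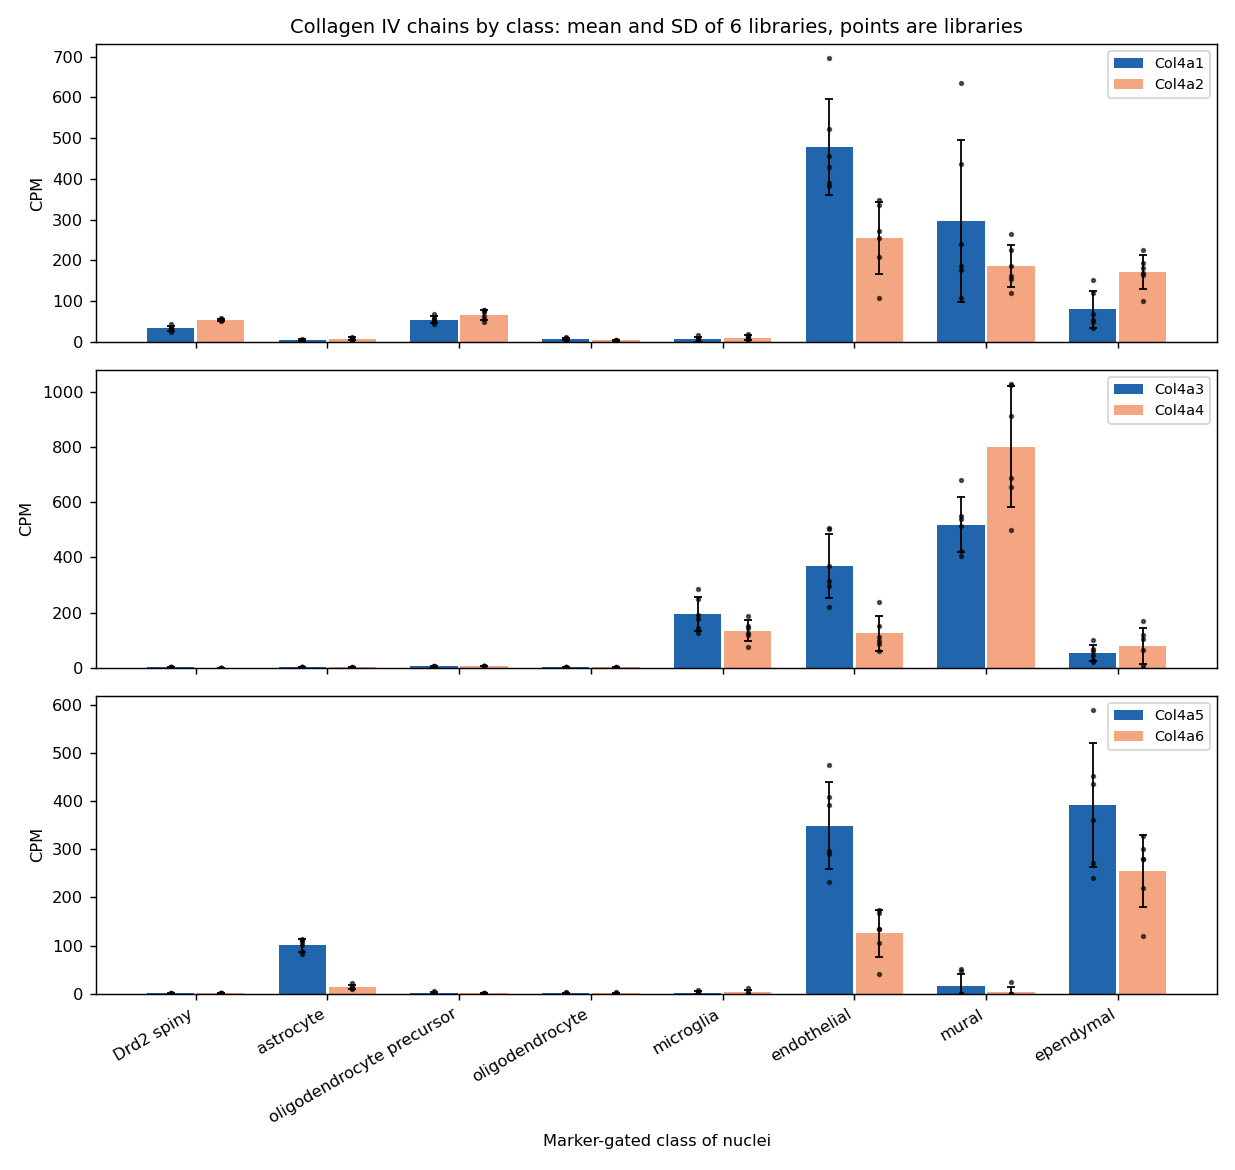
Levels in CPM (vertical axes, from 0) of the collagen IV chains Col4a1 and Col4a2 (top), Col4a3 and Col4a4 (middle), Col4a5 and Col4a6 (bottom) in 8 classes of nuclei. Bars are means over 6 libraries, error bars are SD and dots are libraries: endothelial nuclei are high for all 3 pairs, microglia for Col4a3 and Col4a4 and ependymal nuclei for Col4a5 and Col4a6.

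Fibroblast nuclei numbered 20, from 1 to 5 per library, and have no test. Pooled, with exact Poisson intervals that cover counting error only, they held Col4a6 at 2571 CPM (95% interval 2073 to 3153), Col4a5 at 2487 CPM (95% interval 1998 to 3061), the transmembrane collagen Col13a1 at 1034 CPM (95% interval 728 to 1425) and the FACIT collagen Col12a1 at 1034 CPM (95% interval 728 to 1425). Col1a2 and Col3a1, chains of the main fibrils of connective tissue, were at 559 CPM (95% interval 341 to 863) and 224 CPM (95% interval 96.5 to 440.5). In the pooled endothelial class Col1a2 was at 4.29 CPM (95% interval 0.520 to 15.5), Col3a1 at 4.29 CPM (95% interval 0.520 to 15.5) and Col12a1 at 2.15 CPM (95% interval 0.0543 to 12.0), and Col13a1 had 0 UMIs, which allows up to 6.44 CPM. Over all nuclei Col1a2, Col3a1 and Col13a1 were at 0.370, 0.128 and 0.289 CPM, and all of them were among the 20 genes with too few counts for the test between classes.

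Comparing naloxone with saline asks which of these genes differed 1 h after the opioid antagonist in heroin-experienced rats. Over all nuclei 0 of the 67 tested genes passed (edgeR quasi-likelihood test, Benjamini-Hochberg over 17443 genes), against 0.0803% of all genes; 9 of the 67 had an unadjusted p under 0.05 (14.2% of all genes did), and DESeq2 called 3 (2.8% of all genes). The libraries of the groups did not overlap for 2 genes lower and 7 higher with naloxone, against 10.2% and 11.5% of all genes. The median log2 change was 0.105 over the 67 genes and 0.00918 over all genes. In sums over all nuclei, fewer nuclei of a type and less RNA per nucleus cannot be told apart. Neurons made up 45.8% to 54.9% of nuclei in the saline and 45.9% to 53.0% in the naloxone libraries.

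Within classes, 1 gene passed in 1 of the 15 classes tested: Adamts3 in committed precursors. The shares of all genes called by edgeR were 0.144% in committed precursors, 0.166% in Drd1, 0.359% in Drd2 and 0.0283% in Chst9 spiny neurons, 0.0641% in Pthlh-Pvalb interneurons, 0.96% in astrocytes, 0.391% in oligodendrocyte precursors, 0.927% in oligodendrocytes and 0.181% in microglia. The shares were 0% in the Casz1, Drd3, Bnc2, cholinergic, somatostatin and endothelial classes. An unadjusted p under 0.05 was found for 6 of 25 genes in Drd1, 5 of 32 in Drd2 and 4 of 28 in Chst9 neurons, 1 of 17 in Casz1 and 1 of 13 in Drd3 neurons, and for 2 of 10, 2 of 7, 3 of 9 and 2 of 9 in the Bnc2, cholinergic, somatostatin and Pthlh-Pvalb classes. In glia it was found for 1 of 29 in astrocytes, 5 of 24 in oligodendrocyte precursors, 3 of 9 in committed precursors, 3 of 22 in oligodendrocytes and 1 of 7 in microglia, and for 0 of 6 in endothelial nuclei. Of all genes tested, 10.4% in Drd1, 12.9% in Drd2, 8.33% in Chst9, 7.86% in Casz1, 4.63% in Drd3, 5.63% in Bnc2, 5.87% in cholinergic, 7.26% in somatostatin and 8.63% in Pthlh-Pvalb neurons had such a p. The share was 11.3% in astrocytes, 8.53% in oligodendrocyte precursors, 6.83% in committed precursors, 11.3% in oligodendrocytes, 7.59% in microglia and 5.05% in endothelial nuclei. With so few genes per class, these counts are a description. DESeq2 called 1 gene in Drd2 neurons (1.13% of all genes given an adjusted p) and 1 in committed precursors (0.144%). It called 0 in the other 13 classes, where its share of all genes was 0.352% in Drd1, 0.0471% in Chst9, 0.0206% in Casz1, 0.0302% in Bnc2, 0.0155% in cholinergic and 1.23% in Pthlh-Pvalb neurons, 1.57% in astrocytes, 0.519% in oligodendrocyte precursors, 1.68% in oligodendrocytes, 0.648% in microglia and 0% in the Drd3, somatostatin and endothelial classes.

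Adamts3 was read at 198, 85.2 and 59.4 CPM in saline replicates 1 to 3 and 14.4, 22.0 and 10.7 CPM in naloxone replicates 4 to 6 in committed precursors. The groups did not overlap, saline replicate 1 was by far the highest, and the counts behind these levels were 40, 17 and 20 UMIs with saline and 4, 3 and 3 with naloxone. The log2 change was -2.88 ± 0.55 (SE), with an edgeR adjusted p = 0.0336 and a DESeq2 adjusted p = 0.00994. The call did not hold without saline replicate 1 (log2 change -2.23, edgeR adjusted p = 0.216), without naloxone replicate 4 (-2.87, 0.189) or with nuclei of at least 1000 genes (-2.78, 0.133). With 1 more marker needed for the class, the gene had too few counts for a test. Adamts3 is high in spiny neurons. The 5 neuron markers, all of them detected, summed to 544 to 593 CPM in saline and 374 to 549.6 CPM in naloxone committed precursors, and the 6 spiny neuron markers to 153 to 267 and 118 to 205 CPM. Their part in the change was not tested. In oligodendrocytes Adamts3 was read at 41.1, 23.9 and 37.8 CPM in saline replicates 1 to 3 and 20.8, 19.5 and 19.5 CPM in naloxone replicates 4 to 6; the groups did not overlap, and the change of -0.78 ± 0.21 (SE) did not pass (unadjusted p = 0.00232, adjusted p = 0.124, edgeR) but did without saline replicate 2 (-0.997, adjusted p = 0.0175). In Drd1, Drd2, Chst9 and Casz1 spiny neurons the change of Adamts3 was 0.45 ± 0.17 (SE), 0.24 ± 0.15 (SE), 0.12 ± 0.12 (SE) and 0.37 ± 0.14 (SE), none of them past the threshold.

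Adamts19, a protease gene of spiny neurons, had the smallest p of the set over all nuclei. It was read at 37.5, 29.4 and 37.9 CPM in saline replicates 1 to 3 and 23.1, 25.0 and 25.2 CPM in naloxone replicates 4 to 6, and the groups did not overlap. The log2 change was -0.53 ± 0.11 (SE) (unadjusted p = 9.06e-04, adjusted p = 0.128 by edgeR), and DESeq2 gave an adjusted p of 0.00152. In Drd2 spiny neurons Adamts19 was read at 54.4, 41.0 and 49.7 CPM in saline replicates 1 to 3 and 40.8, 28.5 and 23.7 CPM in naloxone replicates 4 to 6, with a change of -0.66 ± 0.17 (SE) (unadjusted p = 0.00166, adjusted p = 0.119 by edgeR; DESeq2 adjusted p = 0.0251), and without naloxone replicate 4 it passed (-0.89, edgeR adjusted p = 0.0241). In Drd1 neurons the libraries overlapped (62.0, 46.0 and 53.8 CPM in saline replicates 1 to 3 and 49.9, 31.8 and 34.1 CPM in naloxone replicates 4 to 6) and the change was -0.53 ± 0.16 (SE) (edgeR adjusted p = 0.261). The estimate was below 0 in all 6 neuron classes where Adamts19 was tested, from -0.30 in Casz1 to -0.77 in Bnc2 neurons, and -0.000485 ± 0.21 (SE) in oligodendrocyte precursors; these classes come from the same 6 libraries.

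**Figure D4:**
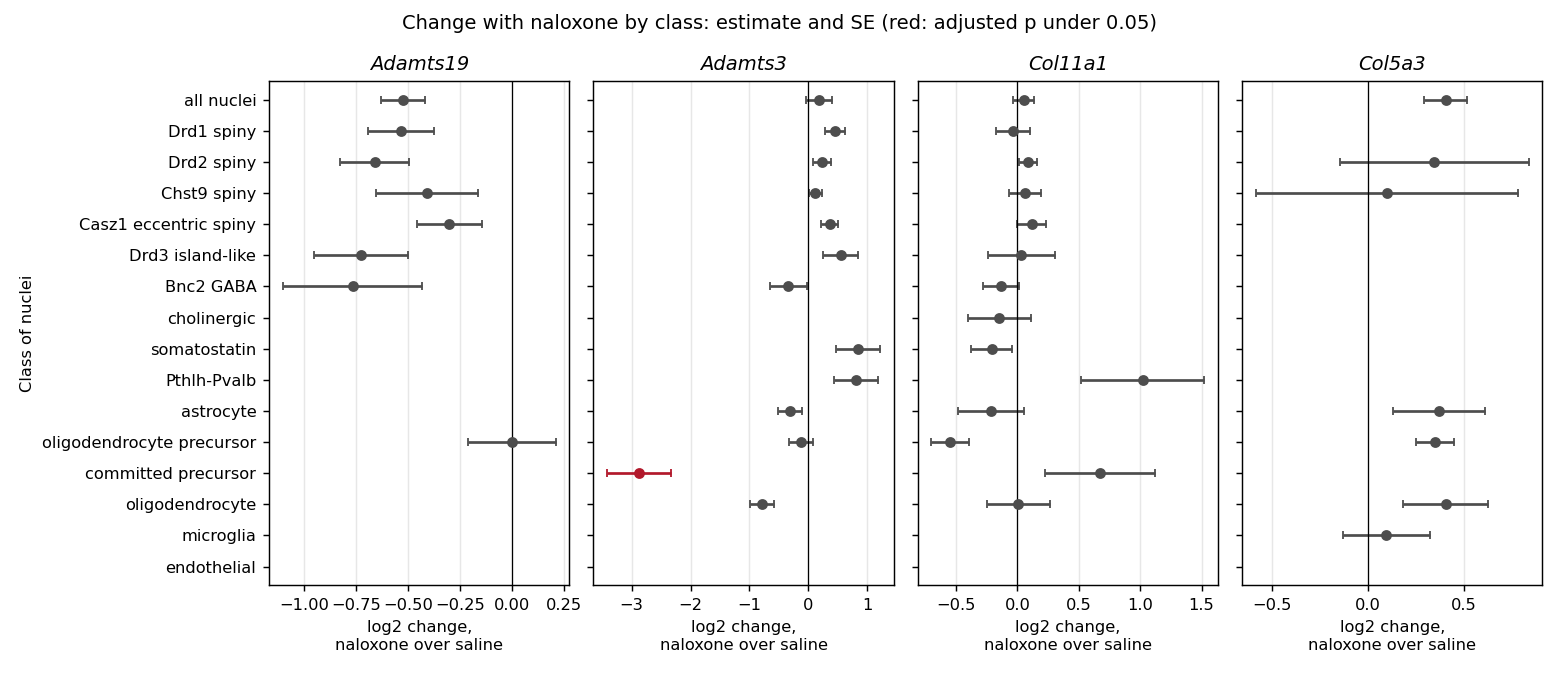
Log2 change with naloxone over saline (horizontal axes, differing in range) of Adamts19, Adamts3, Col11a1 and Col5a3 over all nuclei and in each class where the gene was tested. Points are edgeR estimates and bars are SE: only Adamts3 in committed precursors (red) passed, and Adamts19 lies at or below 0 in each class shown.

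In oligodendrocyte precursors the 2 genes with the smallest p were Col11a1 and the class's own marker Col5a3. Col5a3 was higher in every naloxone library than in any saline library, as the values above show, with a log2 change of 0.35 ± 0.10 (SE) that did not pass (unadjusted p = 0.00155, adjusted p = 0.159 by edgeR, DESeq2 adjusted p = 0.139). Col11a1 was read at 210.0, 178 and 216 CPM in saline replicates 1 to 3 and 122, 197 and 99.2 CPM in naloxone replicates 4 to 6 and overlapped through naloxone replicate 5. Its change was -0.55 ± 0.15 (SE) (unadjusted p = 0.00140, adjusted p = 0.157 by edgeR), and without naloxone replicate 5 it was -0.84 (adjusted p = 0.000865). This is the library with the highest mitochondrial share, whose part was not tested. Leaving out that library also brought in Adamts2 and Col4a4 over all nuclei, Adamtsl1 and Col12a1 in Drd1 neurons and Col18a1 in Drd2 neurons, while the genes called over the whole table rose from 14 to 237 over all nuclei.

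The remaining genes with the smallest p of a larger class did not pass in edgeR. Over all nuclei Adamts2, a procollagen N-proteinase, had an estimate of 0.76 ± 0.21 (SE) (unadjusted p = 0.00548, adjusted p = 0.197), and DESeq2 called it (adjusted p = 0.0337). In Drd1 neurons the estimate for Adamtsl1 was 0.74 ± 0.25 (SE) (edgeR adjusted p = 0.338) and in Drd3 neurons 0.53 ± 0.27 (SE) (edgeR adjusted p = 0.988). In Drd2 neurons Adamts9, a proteoglycan-cleaving protease, had 0 UMIs in saline replicate 1 (which allows up to 0.489 CPM) and at most 1.16 CPM with saline, against 2.26 to 3.33 CPM with naloxone (edgeR adjusted p = 0.114). In Chst9 neurons the estimate was 1.17 ± 0.30 (SE) for the aggrecanase Adamts5 and, for Adamts17, 0.64 ± 0.18 (SE) (edgeR adjusted p = 0.215 and 0.295). In oligodendrocytes the estimate for Adamts4 was -0.36 ± 0.12 (SE) (edgeR adjusted p = 0.266) and in microglia that for Col4a4 was 0.61 ± 0.22 (SE) (edgeR adjusted p = 0.494), both with groups that did not overlap. The other leading genes were Col15a1 in Casz1 neurons (-0.43 ± 0.22 (SE)), Adamts2 and Col16a1 in astrocytes (1.14 ± 0.46 (SE) and -0.16 ± 0.10 (SE)) and Col25a1 in microglia (-0.17 ± 0.17 (SE)), with edgeR adjusted p of 0.351 to 0.890.

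**Figure D5:**
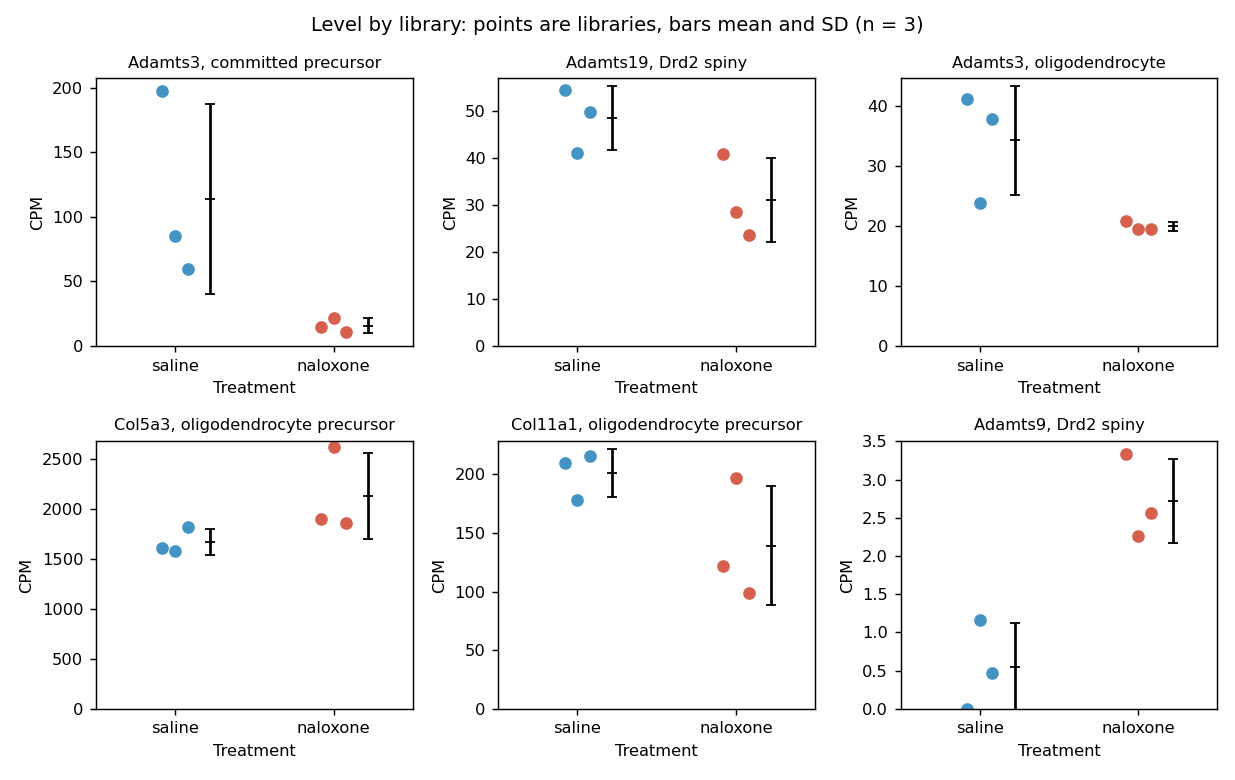
Level in CPM (vertical axes, from 0) by library, 3 saline and 3 naloxone, of Adamts3, Adamts19, Col5a3, Col11a1 and Adamts9 in the class named over each panel. Points are libraries and bars are mean and SD: the groups do not overlap in 5 panels, overlap for Col11a1, and only the change of Adamts3 in committed precursors passed. The panels hold genes named because their p was among the smallest. Of all genes over all nuclei, 10.2% had no overlap with naloxone lower and 11.5% with naloxone higher. Within classes this share was not counted.

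Whether the change differed between classes was tested as a class by treatment term. Between Drd1 and Drd2 spiny neurons 0 of 35 genes passed (edgeR; 0.473% of all genes did), with the smallest p for Col12a1, whose change was -1.89 in Drd2 relative to Drd1 neurons (edgeR adjusted p = 0.103). Between astrocytes and oligodendrocyte precursors 0 of 33 passed (0.0711% of all genes). Counts with an unadjusted p under 0.05 were 10 of 35 (7.08% of all genes) and 0 of 33 (7.11% of all genes), and DESeq2 was not run on these terms.

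Around these genes, few partners of the matrix passed for naloxone. P4ha1, a prolyl hydroxylase subunit that collagen chains need to fold, passed over all nuclei, 1 of 24 tested genes of collagen making, and was lower with naloxone also in Drd2 neurons (1 of 16), astrocytes (1 of 18) and oligodendrocytes (1 of 17), with log2 changes of -0.54, -0.41, -0.65 and -1.12 (edgeR adjusted p = 0.0467, 0.0426, 0.0183 and 0.00708). Over all nuclei P4ha1 did not pass in 7 alternatives (edgeR adjusted p of 0.0538 to 0.292, log2 change -0.59 to -0.52). These left out any library but naloxone replicate 5, nuclei under 1000 genes, or mixed nuclei. In Drd2 neurons the call was also lost without any library but naloxone replicate 5, with 1 more marker needed and with doublets kept (0.0513 to 0.249). In astrocytes it was lost without saline replicate 1 or 3 (0.124 and 0.108). In oligodendrocytes it held in every alternative run. The share of all genes called by edgeR was 0.0803% over all nuclei, 0.359% in Drd2 neurons, 0.96% in astrocytes and 0.927% in oligodendrocytes. It was 0.391% in oligodendrocyte precursors. In astrocytes 2 of 8 tested basement membrane genes rose. Lama2, a laminin chain, was read at 142, 136 and 201 CPM in saline replicates 1 to 3 and 274, 258 and 265 CPM in naloxone replicates 4 to 6, a log2 change of 0.76 (edgeR adjusted p = 0.00676), and Sparc, a collagen-binding glycoprotein, changed by 0.76 (edgeR adjusted p = 0.0136). Colgalt2, which adds galactose to collagen, was read at 141, 138 and 131 CPM in saline replicates 1 to 3 and 97.0, 81.9 and 97.7 CPM in naloxone replicates 4 to 6 in oligodendrocyte precursors and fell by 0.54 on the log2 scale (edgeR adjusted p = 0.0402, 1 of 13 genes of collagen making). DESeq2 did not call Colgalt2 (adjusted p = 0.102). The edgeR call was lost without any 1 of saline replicates 1 to 3 or naloxone replicates 4 and 5, with 1 more marker needed or with doublets kept (0.0545 to 0.206). Without saline replicate 1 neither Lama2 nor Sparc passed (edgeR adjusted p = 0.0708 and 0.109), nor did Sparc without saline replicate 3 (0.0959). For all of these calls the groups did not overlap in the fit with all libraries. Over all nuclei the groups did not overlap for 10.2% of all genes, lower with naloxone, and for 11.5%, higher. This share was not counted within classes. No gene of the collagen receptor, ADAMTS substrate or other metalloprotease lists passed in any class or over all nuclei by edgeR. Over all nuclei their median log2 changes were 0.10, 0.12 and -0.055, against 0.00918 for all genes. An unadjusted p under 0.05 and a DESeq2 call were found there for 0 and 0 of 10, 2 and 1 of 12 and 1 and 0 of 10 of their genes. Within the 15 classes the 3 lists had 4, 10 and 8 results with an unadjusted p under 0.05 among 43, 75 and 66 tests. Between 4.63% and 12.9% of all genes of a class had such a p. DESeq2 called 0, 0 and 0 of these tests in the 3 lists.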

How the data were processed

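Nuclei from rat nucleus accumbens were sequenced on the 10x Genomics GEM-X 3' v4 platform, per the labels, in 3 saline and 3 naloxone libraries. The authors deposited raw UMI counts per gene and barcode, made with Cell Ranger 9.0.1 per the file headers; the build mRatBN7.2 and Seurat 5.2.1 in R 4.4.0 are named in the submitters' processing notes. Whether intronic reads were counted is not given in the sources used here. The files hold 64260 barcodes, against 44592 nuclei stated in the labels. Nuclei entered with 500 genes or more and a mitochondrial share no higher than 5%. Setting aside mixed nuclei, as described above, took the place of a doublet caller. Each broad gate, and that of committed precursors, asked for a minimum number and rate of markers of a list. Neuron subtype gates asked for a minimum number, and only that of Drd3 for a rate. Some asked for named genes as well: Drd1 or Pdyn, Drd2, Casz1 or Mdfic, or a minimum count of Chst9, of Drd3 or, for committed precursors, of Enpp6. Nuclei with a UMI of Drd1 or Pdyn were left out of the island-like class. These minimum values were set after the marker counts had been seen.

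Counts were summed per class and library, for sums of at least 20 nuclei. Tests were edgeR 4.0.16 quasi-likelihood fits with TMM factors, with naloxone against saline unblocked and classes compared with library as a block. DESeq2 1.42.0, RLE factors, no count filter, stricter gates, at least 1000 genes per nucleus, gated mixtures kept and each library left out in turn were alternatives. The fits were tested on simulated data, in which 200 genes were changed with naloxone by 1 on the log2 scale. Of these, 86% were recovered over all nuclei, 54% in Pthlh-Pvalb, 35.5% in committed precursor and 4% in endothelial nuclei. In the other classes 56.5% to 82.5% were recovered. Promoters were taken from RefSeq (GRCr8). The genes and lists were chosen with earlier results of these data known. Named genes were those marking a class or called for naloxone, the 2 leading genes of classes with no marking gene, and up to 2 with the smallest unadjusted p for naloxone in each class of at least 1000 nuclei and over all nuclei, and called genes of the matrix lists; others named were chosen after their values were seen. Library totals of 55739350 to 76272798 UMIs set the precision, and intervals and limits for counts of 0 (3 counts) cover counting error only.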

Additional observations from a re-analysis of the deposited data

How the results depend on the processing

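No paired analysis was possible because the saline and naloxone libraries share no replicate number. The number of genes marking a class was 18 and lay between 15 and 22 under all alternatives, 15 to 21 with a library left out, but not always the same genes: between 10 and 18 of the 18 kept their class. Without any 1 of saline replicates 1 and 2 and naloxone replicates 4 and 6, ependymal nuclei were too few for a test, the 3 ependymal marks were lost, and Col4a5 and Col4a6 (endothelial), Adamts18 (oligodendrocyte precursors), Adamts12 (astrocytes) and Col23a1 (microglia) came in, with Col4a2 (endothelial) in 2 of these fits. With at least 1000 genes per nucleus endothelial nuclei dropped out too, and 7 genes came in. With sums of at least 10 nuclei 14 of the 18 kept their class. Thinning to 1000 UMIs lowered the share of nuclei with a UMI in the marked class to 24.2% for Col14a1, 42.6% for Adamtsl1, 4.19% for Col9a1, 56.2% for Col25a1, 3.85% for Col2a1, 1.91% for Adamts15, 36.1% for Col19a1, 40.9% for Col11a2, 28.6% for Col5a2, 78.4% for Col5a3, 9.94% for Col20a1 and 5.90% for Col22a1. The log2 difference of Col18a1 in endothelial nuclei to the next class became -2.95 once mural nuclei entered with sums of at least 10 nuclei, an alternative chosen after seeing the data. For naloxone, DESeq2 called 3 genes over all nuclei and 1 in Drd2 neurons. Without the filter on low counts edgeR called 4 in Drd1, 2 in Drd2, 2 in Chst9, 1 in Drd3, 1 in cholinergic, 2 in somatostatin and 1 in Pthlh-Pvalb neurons, 2 in oligodendrocyte precursors and 1 in oligodendrocytes; over the whole table it called 469 genes in Drd2 neurons in place of 45, and the cause was not tested. In committed precursors 0 were called with 1 more marker needed and 0 with at least 1000 genes per nucleus. With a library left out, counts ranged from 0 to 2 over all nuclei, 0 to 2 in Drd1, 0 to 1 in Drd2 and 0 to 2 in Pthlh-Pvalb neurons, 0 to 1 in oligodendrocyte precursors, 0 to 2 in committed precursors, 0 to 1 in oligodendrocytes and 0 to 1 for the difference between Drd1 and Drd2 neurons. Keeping gated mixtures was not run over all nuclei, where they were already included. Leaving them out there, an alternative added later, called 0 of all genes and gave -0.57 for Adamts19 (adjusted p = 0.152). Depth limits the fibroblast, mural, endothelial and ependymal values most: 3 UMIs over the pooled class come to 83.8, 17.4, 6.44 and 6.06 CPM there, against 2.09 CPM or less in the other classes.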
